A study of Mus musculus with 24 samples.

Results

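Unstimulated bone marrow-derived macrophages of the congenic strain BC-R3 were compared with those of B6, on 6 of the 24 Affymetrix expression arrays of the study. The members were the 3 unstimulated arrays whose titles name B6.C3Bir-Cdcs1 Il10-/-, called BC-R3 here, and the 3 whose titles name B6-Il10-/-, called B6, chosen by title alone. BC-R3 (strain B6.Cg-Il10tm1Cgn Cdcs1) carries the C3Bir form of the Cdcs1 region of chromosome 3 on a B6 background, and B6 is C57BL/6J-Il10tm1Cgn. Both strains therefore carry the Il10 knockout allele, and neither group stands for a normal macrophage. Per the labels all mice were male, at 3 mice per genotype and with no age stated. Marrow cells were cultured for 6 days, and cells of 3 wells were pooled for each RNA sample. The arrays of a group are numbered 1 to 3, but no label ties a number to a mouse. P-values thus reflect how far arrays spread within groups, which may be technical. In the main fit that spread was estimated over all 24 arrays rather than the 6 compared. The study also held C3Bir and the congenic strain CB-R1, whose titles name Il10-/- as well. CB-R1 has the C3Bir background with a B6 segment of chromosome 3 containing Cdcs1. Flagellin-treated arrays of all 4 strains, at 1 ug/mL for 4 h, were also part of the study.

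Cdcs1 is a locus that modifies colitis in mice lacking Il10, the gene of a cytokine that restrains macrophage activation. The C3Bir form goes with severe disease and the B6 form with mild disease. In macrophages, microbial products act through receptors and the NF-kB transcription factors to induce cytokines and chemokines. Secreted type I interferon then induces a second wave of antiviral genes through STAT and IRF factors. Guanylate-binding proteins are interferon-induced GTPases that act against intracellular microbes, and several of their genes form a cluster on distal chromosome 3.

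The macrophage label was checked against 10 markers, among them Csf1r, Adgre1, Cd68 and C1qa. Their log2 values lay between 8.94 and 14.43 on all 6 arrays, where the array medians were 6.55 to 6.64. The values carry no detection call. A signal close to the arrays' lower quartiles (5.29 to 5.42), or under them, was given no fold, and differences there are given on the log2 scale only. The Il10 probe set gave 7.0, 6.63 and 6.78 in BC-R3 and 7.16, 8.70 and 8.41 in B6. Its position relative to the knockout lesion was not examined.

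The arrays within each group were unequal. The first principal component of the 6 arrays held 81.1% of their variance. BC-R3 arrays 1, 2 and 3 scored 4.66, 35.4 and 38.7 on it, against -1.94, -37.3 and -39.4 for B6 arrays 1, 2 and 3. Array 1 of both strains therefore lay near the middle, and arrays 2 and 3 lay at opposite ends. B6 arrays 2 and 3 had the highest inflammatory gene levels, as the values below show, although they are labelled unstimulated. Values without these 2 arrays are given beside many of the results.

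The difference seen most steadily was at Ifi44l, an interferon-induced gene of chromosome 3. Its log2 values were 10.70, 9.76 and 9.54 in BC-R3 and 5.14, 5.68 and 5.04 in B6. All BC-R3 arrays were high and all B6 arrays were near the lower quartile, with a gap of several log2 units. The difference was 4.71 ± 0.34 (log2 ± SE, n = 3 arrays each, limma adjusted p = 1.65e-07). The other probe sets of the gene differed the same way, by 4.01 and 0.73. With B6 arrays 2 and 3 left out the difference was 4.87. Ifi44l was also called when the 6 arrays were fitted alone (limma adjusted p = 0.00884).

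Gbp2b, a guanylate-binding protein gene, had 10.995, 8.50 and 8.05 in BC-R3 and 5.599, 6.08 and 5.49 in B6. The groups did not overlap, and BC-R3 array 1 was the highest. The difference was 3.46 ± 0.57 (log2 ± SE, n = 3 each, limma adjusted p = 0.000655). Olfml3, which encodes a secreted olfactomedin-like matrix protein, had 7.55, 7.58 and 7.90 in BC-R3 and 10.30, 9.07 and 9.60 in B6. Every BC-R3 array was below every B6 array. Olfml3 was 3.94-fold lower in BC-R3, at -1.98 ± 0.19 (log2 ± SE, n = 3 each, limma adjusted p = 1.63e-05). Gbp2b and Olfml3 each had 1 probe set, so an altered transcript level and a strain variant under the probes cannot be told apart. Fitted on the 6 arrays alone, neither gene was called (limma adjusted p = 0.0738 for each). Without B6 arrays 2 and 3 the differences were 3.58 for Gbp2b and -2.62 for Olfml3, and only Olfml3 of this pair was called.

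Mcoln3 and Chil3, also of chromosome 3, were lower in BC-R3 by smaller steps. Mcoln3, an endolysosomal mucolipin channel gene, had 5.96, 6.00 and 6.08 in BC-R3 and 6.79, 6.53 and 7.25 in B6, a difference of -0.84 ± 0.13 (log2 ± SE, n = 3 each, limma adjusted p = 0.000515). The BC-R3 arrays were tight and all below B6. The other probe set of Mcoln3 differed by -0.30. Chil3, a chitinase-like secreted protein of alternatively activated macrophages, had 11.41, 10.58 and 10.53 in BC-R3 and 12.37, 11.999 and 11.96 in B6. It was 2.41-fold lower in BC-R3 (log2 -1.27 ± 0.24 SE, n = 3 each, limma adjusted p = 0.00122), and the groups did not overlap.

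**Figure D1:**
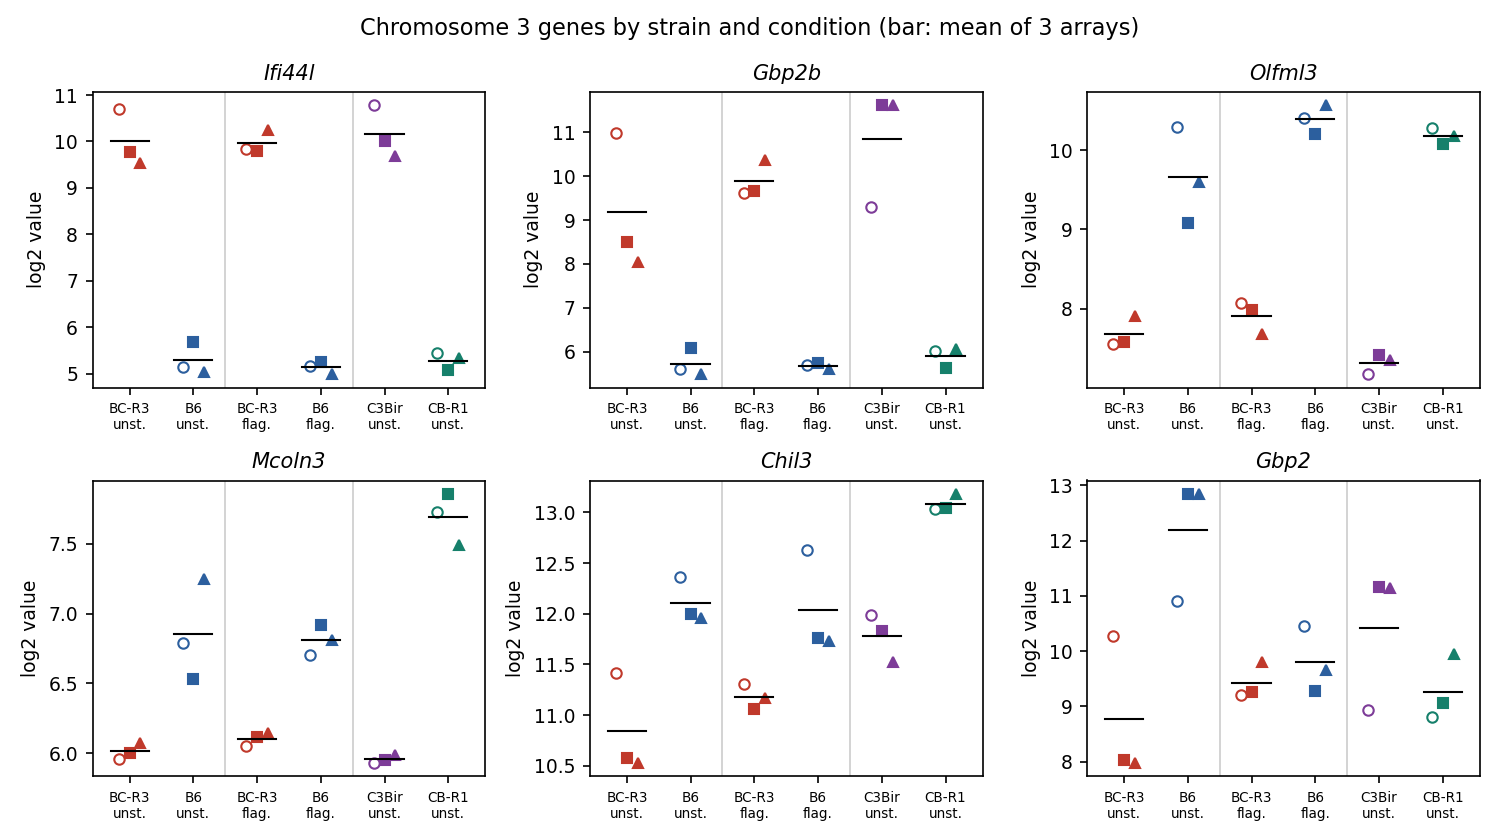
Log2 values of 6 chromosome 3 genes on each array (open circle, array 1; square, array 2; triangle, array 3; bar, mean of 3 arrays) in BC-R3 and B6, unstimulated and with flagellin, and in unstimulated C3Bir and CB-R1. Ifi44l and Gbp2b were high, and Olfml3 and Mcoln3 low, on every array with the C3Bir form of Cdcs1, whereas Gbp2 varied with the array.

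The same genes were read on arrays outside the comparison. With flagellin, on other arrays but, per the labels, from the same donors, BC-R3 minus B6 gave 3 called genes, which is 0.0165% of those tested. These were Ifi44l at 4.82, Gbp2b at 4.21 and Olfml3 at -2.48 (log2, n = 3 each, limma adjusted p = 1.09e-07, 0.00218 and 3.13e-07). All 3 lie on chromosome 3 and had the sign seen without flagellin. Mcoln3 differed by -0.71 and Chil3 by -0.86 there and did not pass (adjusted p = 0.105 and 1.00).

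C3Bir against CB-R1 set the C3Bir form against the B6 form on the C3Bir background, with no array shared. There 1.01% of genes were called, and Ifi44l differed by 4.87, Gbp2b by 4.94, Olfml3 by -2.86, Mcoln3 by -1.74 and Chil3 by -1.30 (log2, n = 3 each, largest limma adjusted p = 0.0196). Each had the sign of BC-R3 minus B6. Of the 5513 genes called in BC-R3 against B6 and the 183 called in C3Bir against CB-R1, 70 were shared, which is 1.27% of the first list and 38.3% of the second. Of these 70 genes 12 had the same sign and 58 the opposite sign. On chromosome 3 lay 6 of the 12, namely the 5 genes above and Sfrp2, a secreted Wnt antagonist. The mean over 19 inflammatory cytokine genes was higher on C3Bir arrays 2 and 3, at 8.76 and 8.66, than on C3Bir array 1 or the CB-R1 arrays, at 7.55 to 7.62. The count of 183 was 6 without C3Bir array 2, 6 without C3Bir array 3, 6 without CB-R1 array 1 and 7 without CB-R1 array 2, against 1766 without C3Bir array 1 and 414 without CB-R1 array 3.

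The promoter windows of Ifi44l and Gbp2b are shown with a pair of windows from genes that behaved otherwise. These are Gbp2, of the same cluster as Gbp2b, and Cxcl10 of chromosome 5. Each runs 5′ to 3′ from 250 bases before to 50 after the RefSeq start and is the C57BL/6J reference of GRCm38.p6; the C3Bir sequence was not used here. Capitals mark matches on either strand to an interferon-response-like motif (GAAA, any 2 bases, GAAA) or a kappaB-like motif (GGGA, any 4 bases, CC). The windows are Ifi44l at chr3:151762842-151763141 (minus strand), Gbp2b at chr3:142594597-142594896 (plus), Gbp2 at chr3:142620413-142620712 (plus) and Cxcl10 at chr5:92348840-92349139 (minus).
Ifi44l: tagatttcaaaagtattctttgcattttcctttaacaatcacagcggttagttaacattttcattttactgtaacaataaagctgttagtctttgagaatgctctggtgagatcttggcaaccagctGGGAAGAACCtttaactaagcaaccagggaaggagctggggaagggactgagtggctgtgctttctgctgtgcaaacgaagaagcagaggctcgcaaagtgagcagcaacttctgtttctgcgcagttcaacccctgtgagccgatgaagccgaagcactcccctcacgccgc
Gbp2b: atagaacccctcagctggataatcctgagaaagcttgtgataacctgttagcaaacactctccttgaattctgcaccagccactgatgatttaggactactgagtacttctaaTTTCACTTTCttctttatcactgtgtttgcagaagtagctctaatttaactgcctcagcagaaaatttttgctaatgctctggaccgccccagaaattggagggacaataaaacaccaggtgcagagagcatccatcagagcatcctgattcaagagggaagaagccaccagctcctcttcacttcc
Gbp2: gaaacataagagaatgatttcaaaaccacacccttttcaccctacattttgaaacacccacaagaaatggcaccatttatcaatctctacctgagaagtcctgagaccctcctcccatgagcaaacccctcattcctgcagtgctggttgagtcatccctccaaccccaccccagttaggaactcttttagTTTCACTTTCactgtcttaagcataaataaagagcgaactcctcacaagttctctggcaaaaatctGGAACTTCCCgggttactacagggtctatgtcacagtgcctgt
Cxcl10: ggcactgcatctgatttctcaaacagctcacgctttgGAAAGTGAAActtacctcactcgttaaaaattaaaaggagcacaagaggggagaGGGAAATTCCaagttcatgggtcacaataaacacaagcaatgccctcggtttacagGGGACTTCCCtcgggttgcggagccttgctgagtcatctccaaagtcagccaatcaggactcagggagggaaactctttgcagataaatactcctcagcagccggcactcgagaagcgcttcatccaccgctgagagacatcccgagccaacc
Gbp2b and Gbp2 each held 1 interferon-response-like match, with the same letters on the minus strand. The Ifi44l window held 1 kappaB-like match and no interferon-response-like match, and the Cxcl10 window held 1 interferon-response-like and 2 kappaB-like matches. A match is a description of letters and not a binding site.

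Of 14452 genes of the array with a window, 3.63% held the interferon-response-like motif and 28.4% the kappaB-like motif. Among 22 interferon-stimulated genes of the list used below, 13 (59.1%) held the first and 7 (31.8%) the second. Among 13 inflammatory cytokine genes 0 held the first and 8 (61.5%) the second, and among 20 genes of the NF-kB list 0 and 11 did. The motifs overlapped in 6 places over all windows.

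Over the whole transcriptome 5513 of 18193 genes were called in BC-R3 against B6 (30.3%; limma adjusted p below 0.05), 3194 higher (17.6%) and 2319 lower (12.7%). Of the called genes 502 differed at least 2-fold (2.76% of those tested), 193 higher and 309 lower. The 3 arrays of one group lay beyond the 3 of the other for 6808 genes (37.4%), 3187 of them higher (17.5%) and 3621 lower (19.9%). There were 2224 genes (12.2%) called whichever array was left out. The number called depended on the arrays: it was 2757 without BC-R3 array 3, 2894 without B6 array 3, 2984 without B6 array 2 and 3281 without BC-R3 array 2. It was 3 (0.0165%) without B6 arrays 2 and 3, with 2307 genes at an unadjusted p below 0.05. Fitted on their own spread, the 6 arrays gave 7 called genes (0.0385%), with 6298 at an unadjusted p below 0.05. In each gene list described below, that of distal chromosome 3 aside, 0 genes were called without B6 arrays 2 and 3 and 0 with the 6 arrays alone.

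**Figure D2:**
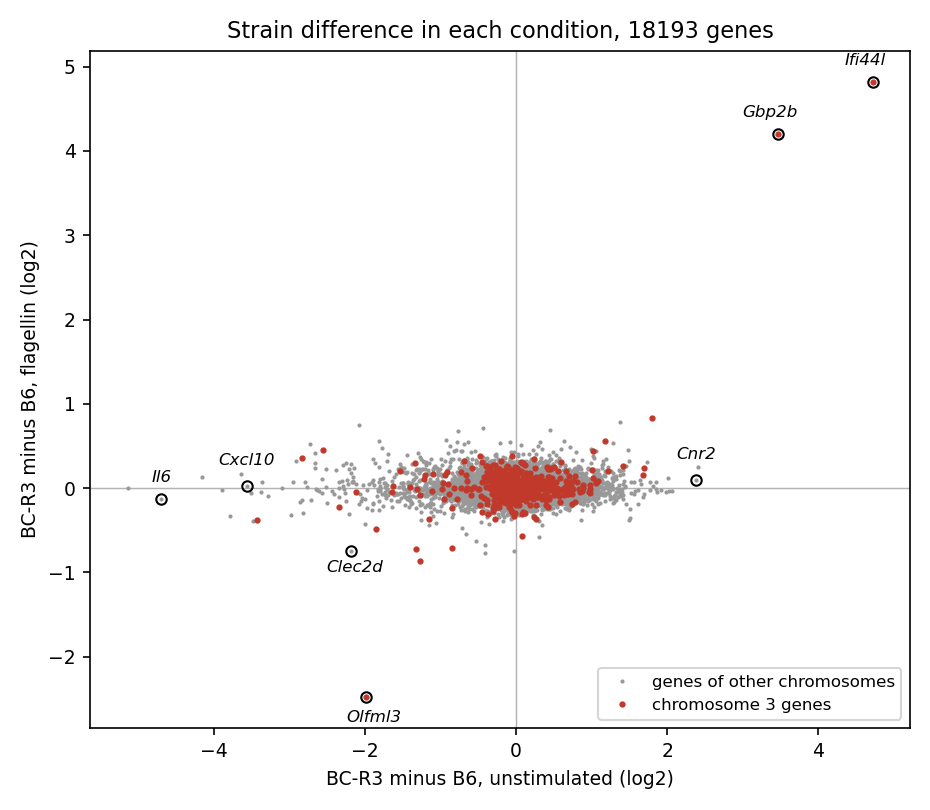
Log2 difference between BC-R3 and B6 without flagellin (horizontal) and with flagellin (vertical) for each of 18193 genes; chromosome 3 genes are red. Ifi44l, Gbp2b and Olfml3 lie far from 0 on both axes, whereas Il6, Cxcl10 and Cnr2 lie near 0 with flagellin.

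Interferon-stimulated genes were mostly lower in BC-R3. Of 31 measured, 26 were lower (83.9%, against 12.7% of all genes), 0 were higher and 5 did not pass. The median was -1.50 against -0.03 over all genes (log2). Mx1, a dynamin-like antiviral GTPase, had 10.85, 8.10 and 7.60 in BC-R3 and 11.31, 12.69 and 12.63 in B6. Array 1 was the highest of BC-R3 and the lowest of B6, and these 2 arrays were close to each other. Mx1 was 10.2-fold lower (log2 -3.36 ± 0.77 SE, n = 3 each, limma adjusted p = 0.00353). Oasl1, of the oligoadenylate synthetase family, had 11.35, 8.43 and 8.24 in BC-R3 and 11.55, 12.56 and 12.65 in B6, a difference of -2.91 ± 0.71 (log2 ± SE, limma adjusted p = 0.00517). Ifit1, which binds viral RNA, differed by -2.66 but lost its call in 3 of the 6 fits that left out an array.

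The list mean over these genes was 10.98, 9.84 and 9.67 in BC-R3 and 11.25, 12.05 and 12.07 in B6. All BC-R3 arrays were below all B6 arrays, by a small step between the arrays numbered 1. Without B6 arrays 2 and 3 the median of the list was -1.01 and Mx1 differed by -2.46, with 0 genes of the list called. Of 15 stromal markers 6 were lower in BC-R3 (40%, against 12.7% of all genes), 1 was higher and 8 did not pass. Their mean was 7.78, 8.16 and 8.20 in BC-R3 and 8.20, 8.97 and 9.38 in B6. BC-R3 array 1 was the lowest of its group for stromal markers and the highest for interferon-stimulated genes. B6 array 1 was the lowest of its group for both. Among the stromal markers were Fn1 at -1.37 and Postn at -1.54, which were called in 1 and 2 of the 6 fits that left out an array. Their part in the interferon difference, and in the groups that follow, was not tested. In bulk RNA fewer cells of a type and less RNA per cell cannot be told apart.

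Interferon-inducible GTPases outside chromosome 3 were also lower. In a list of 6 genes, 5 immunity-related GTPases and Gbp6, 5 were lower (83.3%, against 12.7% of all genes) and 1 did not pass. The median was -2.005, and -1.19 without B6 arrays 2 and 3. Igtp, which acts on pathogen-containing vacuoles, had 10.27, 8.79 and 8.78 in BC-R3 and 10.64, 11.82 and 11.72 in B6 (log2 -2.11 ± 0.43 SE, n = 3 each, limma adjusted p = 0.00177). The groups did not overlap. Gbp6, of the chromosome 5 cluster of guanylate-binding proteins, was 6.18-fold lower, with 7.44, 6.04 and 6.07 in BC-R3 and 7.55, 9.82 and 10.07 in B6 (limma adjusted p = 0.00117). Igtp differed by -1.35 and Gbp6 by -1.03 without B6 arrays 2 and 3.

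Among the 4 measured guanylate-binding genes of chromosome 3, Gbp2b was higher and the other 3 were lower. Gbp2 had 10.28, 8.04 and 7.98 in BC-R3 and 10.90, 12.85 and 12.84 in B6, a 10.8-fold lower level (log2 -3.43 ± 0.61 SE, n = 3 each, limma adjusted p = 0.000974). Its arrays followed the order of the interferon-stimulated genes, with the arrays numbered 1 in between. Gbp3 had 10.28, 7.70 and 7.51 in BC-R3 and 10.00, 11.96 and 12.03 in B6, so that array 1 of BC-R3 was above array 1 of B6. Gbp7 differed by -2.55 ± 0.59 and Gbp3 by -2.83 ± 0.65 (log2 ± SE, limma adjusted p = 0.00387 and 0.00362). With flagellin, Gbp2, Gbp3 and Gbp7 differed by -0.38, 0.36 and 0.46 and did not pass, whereas Gbp2b was called. The unstimulated differences of Gbp2, Gbp3 and Gbp7 were -2.13, -1.50 and -1.07 without B6 arrays 2 and 3.

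Of 19 genes of interferon ligands, receptors and factors, 9 were lower (47.4%, against 12.7% of all genes) and 1 was higher (5.26% against 17.6%). The other 9 did not pass. The median was -0.26, and -0.11 without B6 arrays 2 and 3. Irf1, an interferon-induced transcription factor, was 3.12-fold lower, with 11.34, 9.99 and 9.90 in BC-R3 and 11.57, 12.33 and 12.26 in B6 (limma adjusted p = 0.0011). Jak2, a receptor-associated kinase, differed by -1.74 ± 0.36 and Socs1, a feedback inhibitor of that signalling, by -1.89 ± 0.33 (log2 ± SE, n = 3 each, limma adjusted p = 0.00194 and 0.000856).

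Inflammatory cytokines followed the same pattern of arrays. Of 19 measured, 16 were lower in BC-R3 (84.2%, against 12.7% of all genes) and 3 did not pass, with a median of -1.29. Tnf, a central inflammatory cytokine, had 11.17, 8.89 and 8.99 in BC-R3 and 11.40, 13.31 and 13.26 in B6. It was 7.86-fold lower (log2 -2.97 ± 0.63 SE, n = 3 each, limma adjusted p = 0.00217). Il6, an acute-phase and T cell cytokine, had 4.89, 3.96 and 3.91 in BC-R3 and 4.69, 10.93 and 11.20 in B6. All but 2 of the arrays were below the lower quartile, and the groups overlapped: the difference of -4.69 ± 0.99 (log2 ± SE, limma adjusted p = 0.00222) rested on B6 arrays 2 and 3 and was -0.44 without them.

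Il1b, the precursor of interleukin-1 beta, had 10.06, 7.88 and 7.65 in BC-R3 and 10.00, 13.20 and 13.29 in B6, again with like values on the arrays numbered 1. The difference was -3.63 ± 0.78 (log2 ± SE, n = 3 each, limma adjusted p = 0.00236). Il12b, the shared subunit of IL-12 and IL-23, had 7.83, 5.72 and 5.43 in BC-R3 and 7.36, 11.64 and 11.63 in B6 (log2 -3.88 ± 0.95 SE, limma adjusted p = 0.00555). The groups overlapped for both genes. The mean over the cytokine list was 8.14, 7.51 and 7.49 in BC-R3 and 8.15, 9.94 and 10.02 in B6. Without B6 arrays 2 and 3 its median was -0.33 and 0 of its genes were called, with differences of -1.72 for Tnf, -1.47 for Il1b and -1.04 for Il12b.

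Of 24 chemokine genes 16 were lower (66.7%, against 12.7% of all genes), 2 were higher (8.33% against 17.6%) and 6 did not pass. Their median was -1.95. The median was -0.61, and 0 were called, without B6 arrays 2 and 3. Cxcl10, an interferon-induced attractant of T cells, had 12.64, 9.17 and 8.70 in BC-R3 and 13.03, 14.10 and 14.06 in B6. It was 11.8-fold lower (log2 -3.56 ± 0.84 SE, n = 3 each, limma adjusted p = 0.00417). Array 1 of BC-R3 was much nearer to B6 than to the other BC-R3 arrays. Ccl5, an attractant of T cells and monocytes, had 12.44, 9.28 and 9.07 in BC-R3 and 12.92, 14.00 and 13.99 in B6 and was 10.4-fold lower (limma adjusted p = 0.00291). Ccl12, a monocyte attractant, differed by -3.48 ± 0.56 and Ccl22, an attractant of regulatory T cells, by -2.51 ± 0.55 (log2 ± SE, limma adjusted p = 0.000624 and 0.00279). Leaving out B6 arrays 2 and 3 gave -2.86 for Cxcl10, -2.65 for Ccl5, -1.98 for Ccl12 and -0.45 for Ccl22.

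**Figure D3:**
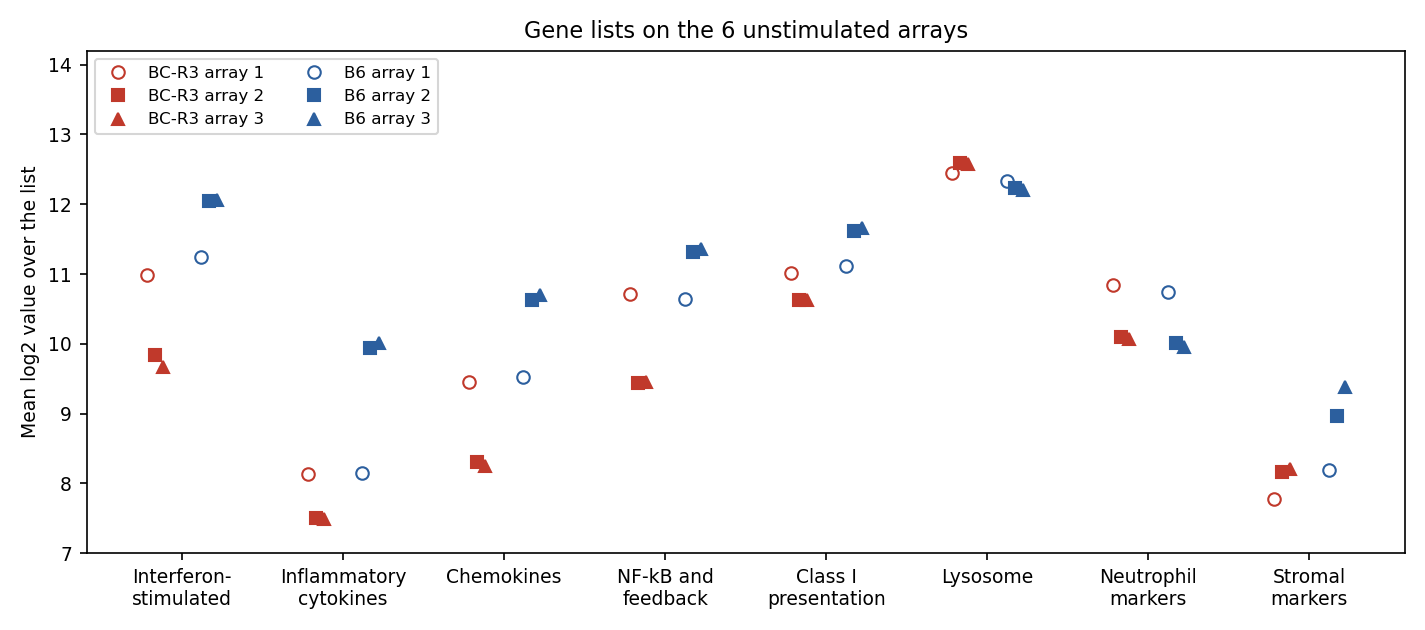
Mean log2 value over each gene list on every unstimulated array of BC-R3 (red) and B6 (blue); open circles are array 1, squares array 2 and triangles array 3. Interferon-stimulated genes, chemokines and cytokines are lowest on BC-R3 arrays 2 and 3 and highest on B6 arrays 2 and 3, with the arrays numbered 1 in between, and lysosome genes lie slightly higher in BC-R3.

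Of 25 genes of the NF-kB pathway and its feedback 22 were lower (88%, against 12.7% of all genes) and 3 did not pass. Their median was -1.03. With B6 arrays 2 and 3 left out the median was -0.66 and 0 were called. Cd40, a receptor of T cell help, had 10.66, 7.28 and 7.36 in BC-R3 and 11.01, 12.80 and 12.85 in B6. Its groups did not overlap, and it was 13.8-fold lower (log2 -3.79 ± 0.78 SE, n = 3 each, limma adjusted p = 0.00197). Traf1, an adaptor of TNF receptors, and Icam1, an adhesion molecule, differed by -2.78 ± 0.62 and -2.25 ± 0.53 (log2 ± SE, limma adjusted p = 0.00307 and 0.00447). Cd69, an early activation antigen, had 9.55, 5.92 and 5.57 in BC-R3 and 9.67, 11.93 and 11.91 in B6 (log2 -4.16 ± 0.91 SE, limma adjusted p = 0.00278). Cd40 differed by -2.57 and Cd69 by -2.66 without B6 arrays 2 and 3.

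Antigen presentation split by class. Of 12 class I genes 8 were lower (66.7%, against 12.7% of all genes) and 4 did not pass, with a median of -0.72. Of 7 class II genes 1 was higher (14.3%, against 17.6% of all genes) and 6 did not pass, with a median of 0.13. These medians were -0.30 for class I and -0.28 for class II without B6 arrays 2 and 3, with 0 genes called, and Nlrc5 differed by -1.12. Nlrc5, the transactivator of class I genes, had 8.99, 8.02 and 8.14 in BC-R3 and 9.51, 10.92 and 10.92 in B6, a 4.19-fold lower level (limma adjusted p = 0.00059). The peptide transporter subunit Tap1 was 2.92-fold lower. The immunoproteasome subunits Psmb9 and Psmb10 were 2.21-fold and 2.1-fold lower (largest limma adjusted p of these 3 genes 0.00138, n = 3 each). In none of these 4 genes did the groups overlap. Whether the classes differed from each other was not tested.

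Of 10 costimulatory and coinhibitory molecules 6 were lower (60%, against 12.7% of all genes), 2 were higher (20% against 17.6%) and 2 did not pass. The median was -0.34, and -0.30 without B6 arrays 2 and 3. Icosl, the ligand of ICOS, was 4.09-fold lower, with 10.80, 8.15 and 8.47 in BC-R3 and 10.997, 11.21 and 11.31 in B6 (limma adjusted p = 0.00445). Cd274, which encodes PD-L1, differed by -1.39 ± 0.35 (log2 ± SE, limma adjusted p = 0.00628). Havcr2, which encodes the inhibitory receptor TIM-3, was higher, with 7.39, 8.52 and 8.84 in BC-R3 and 7.04, 7.04 and 6.55 in B6, at 2.59-fold (limma adjusted p = 0.00175). Icosl differed by -1.86 and Havcr2 by 1.21 without B6 arrays 2 and 3.

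Of 22 macrophage effector genes 15 were lower (68.2%, against 12.7% of all genes) and 7 did not pass, with a median of -1.34. The list had a median of -0.57 and 0 calls without B6 arrays 2 and 3. Nos2, the inducible nitric oxide synthase, had 6.38, 6.29 and 6.29 in BC-R3 and 6.43, 8.02 and 8.32 in B6. BC-R3 arrays and B6 array 1 were alike, and the difference of -1.27 ± 0.28 (log2 ± SE, n = 3 each, limma adjusted p = 0.00293) was -0.11 without B6 arrays 2 and 3. Slc7a2, an arginine transporter, differed by -2.71 ± 0.59, and Saa3, an acute-phase protein of macrophages, by -2.85 ± 0.72 (log2 ± SE, limma adjusted p = 0.00267 and 0.00628), against -0.96 and -1.76 without B6 arrays 2 and 3.

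Of 29 pattern recognition genes 9 were lower (31%, against 12.7% of all genes), 5 were higher (17.2% against 17.6%) and 15 did not pass. Their median was -0.05, and 0.005 without B6 arrays 2 and 3. Nlrp3, an inflammasome sensor, had 11.05, 9.34 and 9.53 in BC-R3 and 11.19, 12.37 and 12.51 in B6 and was 4.14-fold lower (limma adjusted p = 0.000863, n = 3 each). Nod1, a peptidoglycan sensor, was 3.26-fold lower and Tlr3, a receptor of double-stranded RNA, 2.54-fold lower (limma adjusted p = 0.00064 and 0.00147). Naip5, a cytosolic flagellin sensor, was 2.04-fold higher, with 8.93, 9.47 and 9.53 in BC-R3 and 8.40, 8.24 and 8.20 in B6 (limma adjusted p = 0.000806). Tlr5, the surface receptor of flagellin, had 7.52, 7.33 and 7.63 in BC-R3 and 7.22, 7.41 and 7.36 in B6 and did not pass (adjusted p = 0.201). Nlrp3 differed by -1.22 and Naip5 by 0.91 without B6 arrays 2 and 3, and neither was called.

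Zfp36l1, Gpr183 and Cnr2, which lie outside chromosome 3, were higher in BC-R3 and lowest on B6 arrays 2 and 3. Zfp36l1, an RNA-binding protein that promotes decay of mRNAs, had 9.98, 10.78 and 10.71 in BC-R3 and 9.75, 7.21 and 7.30 in B6. It was 5.29-fold higher (log2 2.40 ± 0.53 SE, n = 3 each, limma adjusted p = 0.00276), and the difference was 0.74 without B6 arrays 2 and 3. Gpr183, an oxysterol receptor that guides cell migration, had 8.64, 9.58 and 9.59 in BC-R3 and 8.54, 6.46 and 6.61 in B6 and was 4.18-fold higher (limma adjusted p = 0.0011). The arrays numbered 1 were again alike. Cnr2, the cannabinoid receptor of immune cells, had 6.63, 8.23 and 8.49 in BC-R3 and 6.28, 5.22 and 4.72 in B6, a difference of 2.38 ± 0.44 (log2 ± SE, limma adjusted p = 0.00117). Gpr183 differed by 0.73 and Cnr2 by 1.51 without B6 arrays 2 and 3.

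Other large rises were in Fli1, an ETS transcription factor, at 3.65-fold, Arrdc3, an arrestin-domain protein, at 3.95-fold, and Ncapg2, a condensin subunit, at 4.01-fold. Sesn1, a stress-induced sestrin, was 3.62-fold higher (largest limma adjusted p of these 4 genes 0.00194, n = 3 each). With each array left out in turn, the log2 difference was 1.59 to 2.39 for Fli1 and 1.64 to 2.56 for Arrdc3. That of Ncapg2 was 1.73 to 2.50 and that of Sesn1 1.43 to 2.57. Lpar6, a lysophosphatidic acid receptor, had 9.55, 10.77 and 10.57 in BC-R3 and 9.82, 7.45 and 7.87 in B6, so its groups overlapped (3.77-fold, limma adjusted p = 0.00384).

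**Figure D4:**
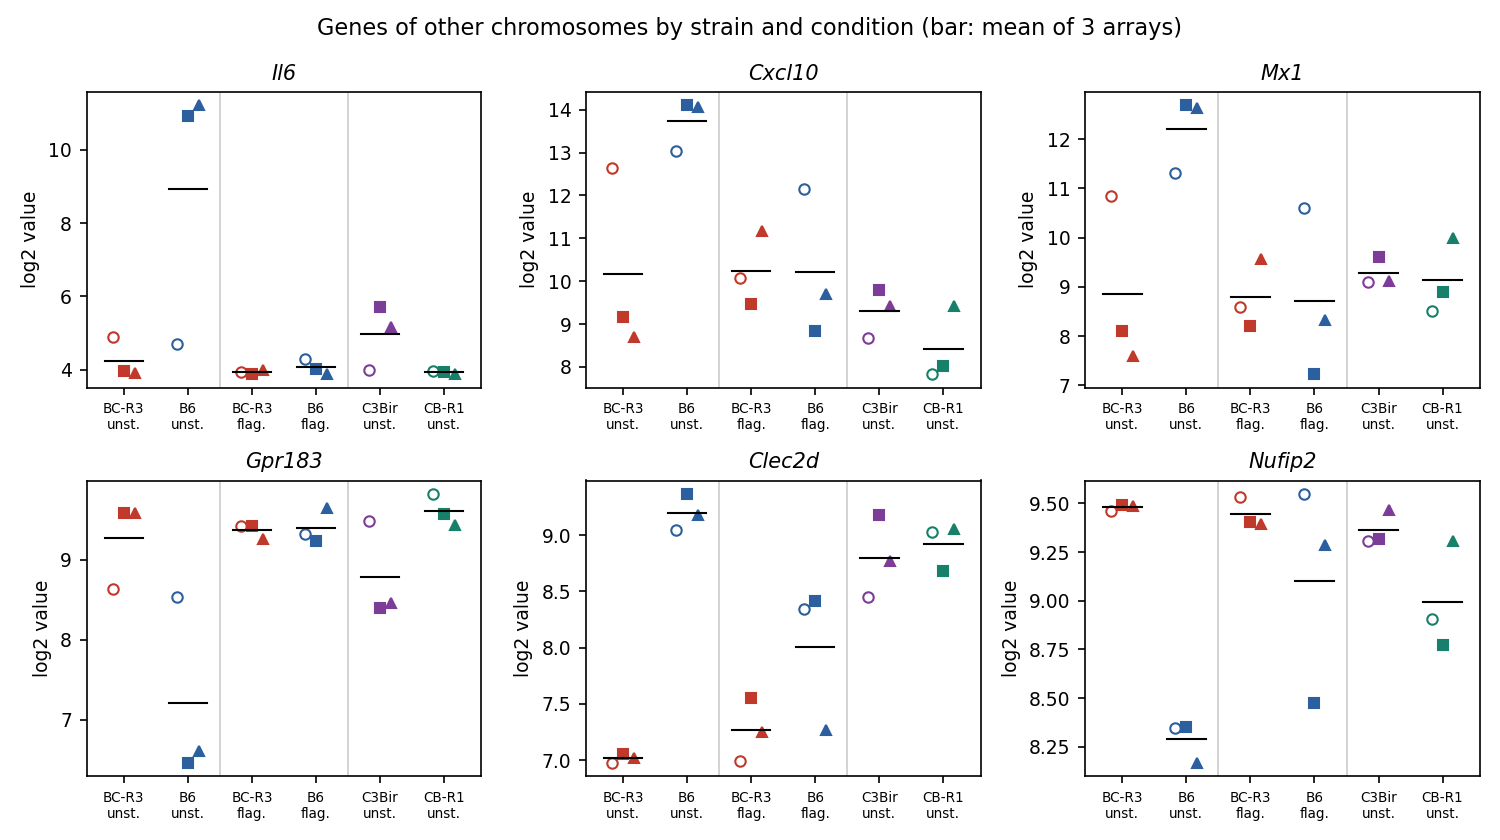
Log2 values of 6 genes of other chromosomes on each array, with symbols as in the plot of chromosome 3 genes. Il6, Cxcl10 and Mx1 were highest on B6 unstimulated arrays 2 and 3 and Gpr183 was lowest there. Clec2d and Nufip2 separated all 3 unstimulated BC-R3 arrays from all 3 unstimulated B6 arrays with little spread.

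Of 24 macrophage identity genes 7 were higher (29.2%, against 17.6% of all genes), 2 were lower (8.33% against 12.7%) and 15 did not pass (62.5% against 69.7%). The median was 0.21, and -0.0013 without B6 arrays 2 and 3. Cebpa, a myeloid lineage factor, had 11.91, 12.40 and 12.35 in BC-R3 and 11.81, 10.45 and 10.52 in B6 and was 2.45-fold higher (limma adjusted p = 0.00196, n = 3 each). Cx3cr1, the fractalkine receptor, had 9.61, 9.67 and 9.62 in BC-R3 and 9.78, 7.37 and 7.62 in B6. It was called at 2.59-fold higher (limma adjusted p = 0.0299), but the groups overlapped and the difference was -0.15 without B6 arrays 2 and 3. Fcgr2b, the inhibitory Fc receptor, was 1.93-fold lower (limma adjusted p = 0.00179).

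Of 18 alternative activation genes 6 were higher (33.3%, against 17.6% of all genes) and 4 lower (22.2% against 12.7%). The median was 0.21, and 0.05 without B6 arrays 2 and 3. Pparg, a lipid-sensing nuclear receptor, was 2.59-fold higher, with 8.40, 9.22 and 9.22 in BC-R3 and 8.19, 7.17 and 7.36 in B6 (limma adjusted p = 0.000667, n = 3 each). Vegfa, an angiogenic factor, was 1.64-fold higher (limma adjusted p = 0.00147). Chil3, of the same list, was lower, as given above.

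Lysosome and cathepsin genes were higher in BC-R3 by small steps. Of 19 genes 13 were higher (68.4%, against 17.6% of all genes), 0 were lower and 6 did not pass. The median was 0.27, and 0.19 without B6 arrays 2 and 3. Gusb, a lysosomal hydrolase, had 12.26, 12.58 and 12.60 in BC-R3 and 12.05, 11.93 and 11.81 in B6 (log2 0.55 ± 0.10 SE, n = 3 each, limma adjusted p = 0.00113). Manba, a lysosomal mannosidase of distal chromosome 3, differed by 0.74 ± 0.16 (log2 ± SE, limma adjusted p = 0.00239), but array 1 was 9.02 in BC-R3 and 9.09 in B6. The list mean was 12.45, 12.59 and 12.57 in BC-R3 and 12.33, 12.23 and 12.20 in B6, with no overlap. Without B6 arrays 2 and 3, and fitted on the 6 arrays alone, 0 of the 19 genes were called.

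Of 19 proliferation genes 6 were higher (31.6%, against 17.6% of all genes) and 2 lower (10.5% against 12.7%), with a median of 0.32, and 0.13 without B6 arrays 2 and 3. Mcm3, of the replicative helicase, and Bub1, of the spindle checkpoint, differed by 0.61 ± 0.14 and 0.57 ± 0.12 (log2 ± SE, n = 3 each, limma adjusted p = 0.00288 and 0.00197). Of 17 sterol synthesis and LXR target genes 4 were higher (23.5%), 2 were lower (11.8%) and 11 did not pass, near the shares of all genes. Among these Scd2, a fatty acid desaturase, was 2.11-fold higher, Mylip, an LXR-induced ubiquitin ligase, was 1.57-fold higher and Fdft1, squalene synthase, was 1.32-fold lower (largest limma adjusted p of the 3 genes 0.00596).

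Of 18 immediate early genes 4 were higher (22.2%) and 2 lower (11.1%), near the 17.6% and 12.7% of all genes. Among them Jun, a subunit of AP-1, was 2.07-fold higher, with 11.32, 11.69 and 11.78 in BC-R3 and 10.92, 10.39 and 10.33 in B6 (limma adjusted p = 0.000326, n = 3 each). The groups did not overlap. Of 14 NRF2 and antioxidant genes 5 were lower (35.7%) and 2 higher (14.3%), with glutathione reductase, Gsr, 1.65-fold lower (limma adjusted p = 0.00508). Of 15 glycolysis and hypoxia genes 4 were lower (26.7%), 1 was higher (6.67%) and 10 did not pass.

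Markers of cell types other than stroma were read against the 17.6% of all genes that were higher and the 12.7% that were lower. Of 10 neutrophil markers 0 were called, with list means of 10.07 to 10.84 in BC-R3 and 9.96 to 10.74 in B6, array 1 being the highest of both strains. Among 7 B cell markers 1 was higher and 1 lower, and 2 of 10 T and NK cell markers and 1 of 9 dendritic cell markers were lower. Of 9 osteoclast markers 3 were lower (33.3%), among them Acp5, tartrate-resistant acid phosphatase, at 3.37-fold (limma adjusted p = 0.00193, n = 3 each). Of 10 mast cell and basophil markers 2 were lower, including Hdc, histidine decarboxylase, at 1.96-fold (limma adjusted p = 0.00116). Of 9 erythroid and megakaryocyte markers 1 was higher, and of 9 endothelial and adipocyte markers 0 were called.

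A small set of genes separated the strains evenly over all 6 arrays. They were the 7 genes called when these arrays were fitted alone, and except for Ifi44l they were singled out after their values had been seen. Clec2d, which encodes a lectin-like ligand of a natural killer cell receptor, had 6.98, 7.05 and 7.02 in BC-R3 and 9.05, 9.37 and 9.18 in B6. It was 4.54-fold lower (log2 -2.18 ± 0.27 SE, n = 3 each, limma adjusted p = 0.000154). Arrays 1, 2 and 3 of a strain were alike for this gene. A fit of the 6 arrays alone favours such genes, so this evenness comes with the choice and is no separate result. Anp32a, a nuclear phosphoprotein gene, had 9.20, 9.0 and 9.06 in BC-R3 and 11.02, 11.11 and 11.12 in B6 and was 4.01-fold lower (limma adjusted p = 0.00169).

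The other 4 of this set were higher in BC-R3. Nufip2, an RNA-binding partner of the fragile X protein, had 9.46, 9.49 and 9.49 in BC-R3 and 8.35, 8.35 and 8.17 in B6 and was 2.28-fold higher (limma adjusted p = 0.000589, n = 3 each). Malat1, a nuclear long noncoding RNA, had 13.48, 13.43 and 13.45 in BC-R3 and 12.54, 12.48 and 12.25 in B6 and was 2.05-fold higher (limma adjusted p = 0.00288). Tatdn2, of a nuclease family, was 2.12-fold higher, and Vapb, a membrane protein of the endoplasmic reticulum, was 2.02-fold higher (limma adjusted p = 0.00377 and 0.00719). Other probe sets differed by -0.72 and -0.49 for Anp32a and by 0.49 and 0.52 for Nufip2. Those of Vapb differed by 0.05 and 0.26, and those of Malat1 by 0.02 to 2.12.

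None of these 6 genes lies on chromosome 3. With flagellin BC-R3 minus B6 was -0.74 for Clec2d, -0.42 for Anp32a, 0.34 for Nufip2 and 0.36 for Malat1, with the same sign but no call. On B6 flagellin arrays 1, 2 and 3 Anp32a had 9.45, 10.54 and 9.19. Nufip2 had 9.55, 8.47 and 9.28 there, and Malat1 13.21, 12.48 and 13.12. For these genes B6 flagellin arrays 1 and 3 were near unstimulated BC-R3, and only array 2 was nearer to unstimulated B6. Anp32a also varied in unstimulated CB-R1, at 10.37, 10.34 and 8.996. Clec2d had 6.99 to 7.55 on the BC-R3 flagellin arrays and 7.27 to 8.42 on the B6 flagellin arrays, with overlap. It had 8.45 to 9.18 in unstimulated C3Bir and 8.68 to 9.06 in unstimulated CB-R1. The unstimulated BC-R3 arrays were thus the lowest of the 4 strains for this gene. Without B6 arrays 2 and 3 the called genes were Ifi44l, Olfml3 and Sparcl1, a matrix protein gene with 5.54, 5.27 and 5.32 in BC-R3 and 6.03, 6.01 and 6.04 in B6, singled out for that call.

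Chromosome 3 as a whole did not stand out in the number of calls. Of its 913 genes 278 were called, or 30.4% against 30.3% of all genes, and the count was 1 when the 6 arrays were fitted alone and 2 without B6 arrays 2 and 3. Of 95 measured genes of distal chromosome 3 around Cdcs1, 27 were higher (28.4%, against 17.6% of all genes) and 16 lower (16.8% against 12.7%). The other 52 did not pass, and the median of the list was 0.04. In C3Bir against CB-R1, 20 chromosome 3 genes were called, or 2.19% against 1.01% of all genes. There were 5 without C3Bir array 2 or 3 or CB-R1 array 1 or 2, and 91 without C3Bir array 1, which is 9.97% against 9.71% of all genes.

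Beyond the genes given above, S1pr1, a sphingosine 1-phosphate receptor, had 9.72, 10.47 and 10.49 in BC-R3 and 9.02, 8.0 and 8.25 in B6 and was 3.5-fold higher (limma adjusted p = 0.000217, n = 3 each). Dnajb14, a co-chaperone of the endoplasmic reticulum, was 2.33-fold higher, Miga1, a mitochondrial fusion factor, 2.27-fold, and Cryz, a quinone reductase, 2.02-fold (largest limma adjusted p of the 3 genes 0.000303). Cryz had 7.98, 8.26 and 8.45 in BC-R3 and 7.32, 7.28 and 7.05 in B6, with a clear gap. Its other probe set differed by 0.17. The other probe set of Miga1 differed by 0.23 and that of Dnajb14 by 0.73. Cryz overlapped between unstimulated C3Bir, at 7.88 to 8.09, and unstimulated CB-R1, at 7.52 to 8.10. Casp6, an executioner caspase, differed by 0.71 ± 0.12 (log2 ± SE, limma adjusted p = 0.00065).

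Mcoln2, a mucolipin channel gene beside Mcoln3, had 9.13, 8.18 and 8.29 in BC-R3 and 9.58, 9.98 and 10.01 in B6 and was 2.51-fold lower (limma adjusted p = 0.00145, n = 3 each). In C3Bir against CB-R1 it differed by 0.79, the opposite sign, and did not pass (adjusted p = 0.112). Il6ra, the interleukin-6 receptor, was 3.23-fold higher and Nceh1, a cholesteryl ester hydrolase, was 3.2-fold higher. Tnfsf10, which encodes the death ligand TRAIL, was 4.34-fold lower, Vcam1, an adhesion molecule, 5.08-fold lower, and Rapgef2, a Rap exchange factor, 3.09-fold lower (largest limma adjusted p of these 5 genes 0.00319). Tifa, an adaptor of bacterial sugar sensing, Lef1, a Wnt pathway factor, and Bank1, a B cell adaptor, had differences of 0.35, -0.13 and -0.11 and did not pass (adjusted p = 0.061, 0.184 and 0.452).

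**Figure D5:**
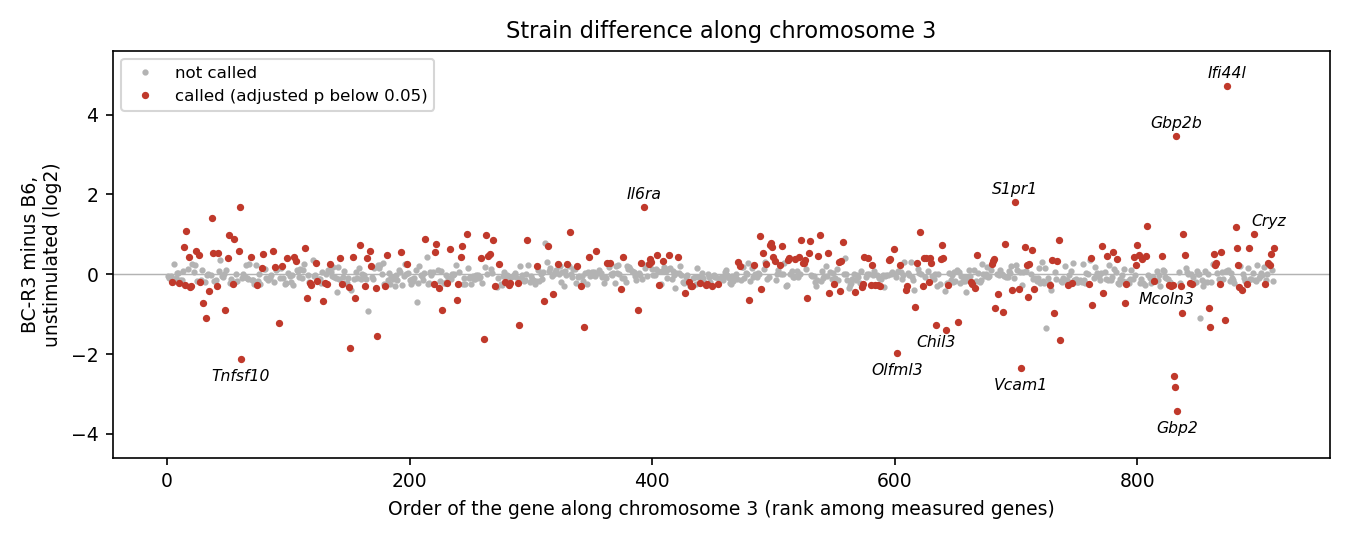
Log2 difference between BC-R3 and B6 without flagellin for the 913 chromosome 3 genes in their order along the chromosome; red points were called. Called genes lie along the whole chromosome, and the largest differences in either direction are at Ifi44l, Gbp2b and the other guanylate-binding genes near the distal end.

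The difference between the strains was compared across conditions by its own contrast. For 1917 genes (10.5%) BC-R3 minus B6 differed between the unstimulated and the flagellin arrays, with limma adjusted p below 0.05. Per the labels, arrays of both conditions of a strain came from the same donors, whereas the model took the arrays as independent. With strain and array number as a random replicate block, chosen after seeing the data, 2773 genes were called and the correlation within blocks was 0.092. As no label ties a number to a mouse, this block may not be the donor. Tnfsf10 differed by -2.12 without flagellin and -0.05 with it (contrast -2.07 ± 0.45, log2 ± SE, adjusted p = 0.0177), Jun by 1.05 and 0.06 (contrast 0.99 ± 0.20, adjusted p = 0.0154), and Dnajb14 by 1.22 and 0.21 (contrast 1.01 ± 0.21, adjusted p = 0.0154). For Ifi44l, Gbp2b and Olfml3 the contrast was -0.11, -0.75 and 0.50 and did not pass (adjusted p = 0.898, 0.549 and 0.213). The number called was 40 without unstimulated BC-R3 array 3, 95 without unstimulated B6 array 2, 107 without B6 array 3 and 140 without BC-R3 array 2. It was 0 without B6 arrays 2 and 3 and 0 when only the arrays concerned were fitted (limma, with 1710 and 4465 genes at an unadjusted p below 0.05).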

How the data were processed

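Total RNA of cultured macrophages was hybridised to Affymetrix arrays. Log2 values of 45037 probe sets on 24 arrays were deposited by the authors. The sources used here do not give how they were computed and normalized. Probe sets without values (4) were dropped. Gene symbols came from the platform annotation: 34944 listed probe sets had 1 gene and 931 had several and were not used. For each of 18193 genes the probe set of highest mean was taken, and 18032 genes were placed on chromosomes through a RefSeq table of GRCm38.p6.

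A model of 8 group means was fitted to all 24 arrays with limma 3.58.1 in R 4.3.3 (16 residual degrees of freedom, eBayes), so that all groups shared 1 estimate of the spread. P-values were two-sided and adjusted by Benjamini-Hochberg over all genes, and genes below 0.05 were called. On simulated data with 100 genes changed by a log2 of 1 and 100 changed by 2, 99 of each were recovered, with 6 false calls among 18193 genes. The simulated noise was independent between genes and had 1 spread per gene for all groups. The real arrays were unequal within groups, so the simulation cannot tell how many false calls these data hold.

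The groups, gene lists and genes to name were chosen with earlier results of these data known. Genes were named by rule: the 10 largest rises and falls among called genes whose arrays did not overlap, the 12 largest in each direction among genes called whichever array was left out and in the fit of the 6 arrays alone or with group-wise array weights, the 15 largest chromosome 3 genes, up to 4 called members of each list, and a fixed set. Not every gene selected is given, and Anp32a, Clec2d, Cryz, Dnajb14, Malat1, Miga1, Nufip2, Sfrp2, Sparcl1, Tatdn2 and Vapb were added after their values were seen. Of 132 genes examined 62 had another probe set, 6 had one of opposite sign, and 0 of these passed an unadjusted p of 0.05 in limma. Promoter windows are from RefSeq, and 14452 genes matched by symbol.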

Additional observations from a re-analysis of the deposited data

Results flagged for a closer look

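BC-R3 minus B6 differed between the unstimulated and the flagellin arrays, by a contrast of the differences in limma at adjusted p below 0.05, for 52 of the 94 genes examined by name. Over all genes it did so for 10.5%. Many of the 94 were named for a large unstimulated difference. That difference is part of this contrast, so the share among them is raised by the choice and is no separate result. Each value below is the unstimulated difference minus the flagellin difference on the log2 scale, and n = 3 arrays in each of the 4 groups. Leaving Clec2d and Nufip2 aside, the flagellin difference lay between -0.40 and 0.46 in the 31 genes that were lower and between -0.19 and 0.21 in the 19 that were higher in unstimulated BC-R3.

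For inflammatory cytokines, costimulation and NF-kB genes the contrast was -4.56 for Il6, -4.29 for Cd69, -3.80 for Il1b, -2.85 for Traf1, -1.90 for Nlrp3, -1.69 for Nod1, -1.32 for Tlr3, -1.27 for Nos2 and -1.47 for Il10. For chemokines and adhesion or death-ligand genes it was -3.32 for Ccl5, -3.09 for Ccl12, -2.52 for Ccl22, -2.12 for Vcam1 and -2.07 for Tnfsf10. For interferon-inducible genes and regulators it was -3.43 for Mx1, -3.23 for Oasl1, -3.05 for Gbp2, -3.19 for Gbp3, -3.01 for Gbp7, -2.61 for Gbp6, -2.16 for Igtp, -1.42 for Irf1, -1.66 for Jak2 and -1.71 for Socs1. For class I presentation genes it was -1.999 for Nlrc5, -1.56 for Tap1, -1.13 for Psmb9 and -1.01 for Psmb10. Other genes lower in unstimulated BC-R3 had -1.66 for Rapgef2, -1.44 for Clec2d, -0.92 for Hdc and -0.72 for Sparcl1.

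Among genes higher in unstimulated BC-R3, receptors and signalling genes had 2.29 for Cnr2, 2.10 for Gpr183, 2.03 for Arrdc3, 1.78 for Sesn1, 1.86 for Susd3, 1.39 for Havcr2 and 0.87 for Naip5. Regulators of transcription and RNA had 1.91 for Fli1, 1.46 for Cebpa, 1.17 for Pparg, 0.99 for Jun and 0.85 for Nufip2. Enzymes and genes of the lysosome, lipids and cell division had 1.89 for Ncapg2, 1.52 for Nceh1, 1.27 for Scd2, 0.94 for Manba, 0.53 for Gusb, 0.69 for Casp6, 0.64 for Mcm3 and 1.01 for Dnajb14. The largest adjusted p was 0.0488. The number of calls depended on the arrays: over all genes 1917 contrasts were called, 40 to 4231 with 1 array left out, and 0 without B6 unstimulated arrays 2 and 3. What set these arrays apart was not tested. Both conditions came from the same donors per the labels, and the arrays were taken as independent.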

How the results depend on the processing

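Few arrays, unequal arrays within both groups and missing detection calls limit these results. For BC-R3 against unstimulated B6 the count of 5513 was 11939 over all probe sets, 7 with the compared arrays alone, 3 without B6 arrays 2 and 3, and 2757 to 6606 with each array left out. For chromosome 3 the count of 278 was 523, 1, 2 and 160 to 327 under these alternatives. Quantile normalization gave 4672, median centring 5341, a filter on low values 5273 and group-wise array weights 4248. Over all genes, deviations of equal-numbered arrays from their group means correlated at -0.41, -0.29 and -0.29. Neutrophil marker means, in contrast, were highest on array 1 of both strains. Whether the numbers pair the arrays for some genes was not tested. With the number as a fixed replicate block 5690 genes were called, with a random block 5504, with a random block by strain and number, added after seeing the data, 5541, and with a fixed block on the 6 arrays alone 0 (limma; 4441 at an unadjusted p below 0.05, 0 on chromosome 3). The cause of these shifts was not tested.

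With flagellin the count of 3 was 10 over all probe sets and 3 to 4 with an array left out. For C3Bir against CB-R1 the count of 183 was 657 with group-wise weights, 7 with the 12 unstimulated arrays, 8 with the compared arrays alone, 407 with a fixed replicate block, 3 with that block on the compared arrays, 297 without B6 arrays 2 and 3, 2731 without the unstimulated arrays numbered 1 of BC-R3, C3Bir and B6, and 6 to 1766 with an array left out. The contrast between conditions, 1917, was 1157 with quantile normalization, 3624 over all probe sets, 846 with group-wise weights, 0 with the compared arrays alone (limma; 4465 at an unadjusted p below 0.05), 0 with a fixed replicate block on them (4192), 0 without B6 arrays 2 and 3 (1710), 5669 without those arrays numbered 1, and 40 to 4231 with an array left out; its share of higher calls was 60.5%, and 72.3% with median centring. Of 94 named genes 83 lost their call with the 6 arrays alone and 87 without B6 arrays 2 and 3. Bank1, which was not called, ranged from -0.205 to 0.0238 with an array left out, and Cx3cr1 to -0.15 without B6 arrays 2 and 3.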
